A study of Mus musculus with 12 samples.

Results

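The genes described here are 36 members of the unfolded protein response and the integrated stress response, measured in RNA from mouse colonic epithelium. They were chosen by name, as known genes of endoplasmic reticulum (ER) chaperones, of the unfolded protein response or of the Atf4 amino acid response, out of 55304 gene symbols in the count files. Of the 36 members, 34 had enough counts to be tested, among 15743 genes tested in all. The study deleted Ehf, which encodes an epithelial transcription factor of the ETS family, to ask what it does in the colonic epithelium. Ehf IKO held 4 libraries from tamoxifen-treated mice labelled as intestinal knockouts of Ehf, whose source names carry the prefix EVCER. Control TMX held 4 libraries from tamoxifen-treated wild-type mice, by their labels, of the source VilCreER, a line that carries a tamoxifen-activated Cre under the Villin promoter. Control OIL held 4 libraries from mice labelled wild-type that share the EVCER prefix and received sunflower oil. All mice were C57BL/6 and 6 weeks old, and epithelial cells were released from the opened colon with EDTA. The tamoxifen dose, the time from treatment to collection and the deleted exons are not given in the sources used here. Source names carry a different number for each library, and no label states separate animals outright, so the p-values below measure the spread between these samples.

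The unfolded protein response is the programme by which cells adjust protein folding in the ER to the load of secreted and membrane proteins. Its sensors are the membrane proteins IRE1 (gene Ern1), PERK (gene Eif2ak3) and ATF6, and they act through the transcription factors XBP1, ATF4 and cleaved ATF6. XBP1 and ATF6 drive genes of chaperones, disulfide isomerases and ER-associated degradation, while ATF4 drives genes of amino acid uptake and synthesis. In the integrated stress response, PERK and related kinases phosphorylate the translation factor eIF2, which lowers overall translation and favours that of ATF4. In the colon this machinery is known for its importance in goblet cells, which fold and secrete large amounts of mucin.

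Levels are given in CPM, read counts per library size after TMM scaling, and levels of different genes are compared per kilobase of exon. Library totals were 7421411 to 10344161 counted reads. All 10 epithelial marker genes were detected in every group, and their summed level was 9465 to 11254 CPM in Ehf IKO, 8875 to 9389.6 CPM in Control TMX and 7531 to 9615 CPM in Control OIL. Ehf itself was at 341 ± 30.1 CPM in Ehf IKO, 345 ± 21.0 CPM in Control TMX and 428 ± 46.4 CPM in Control OIL (SD, n = 4), but the counts sum all exons of the gene and so do not measure the deletion. In Ehf IKO replicate 2, 12 genes took 10.4% of all counts. They were picked for a CPM there more than 30 times the highest of the other libraries plus 1. Their share elsewhere, at most 0.114%, is therefore low by that choice. Sex is not labelled, but Xist was at 1449.8 to 2305 CPM in replicates 1 and 2 of each group and at 1.68 to 3.69 CPM in replicates 3 and 4, which held the Y-linked counts.

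The highest levels per length were those of 5 ER chaperone and isomerase genes, and the lowest were those of Trib3, Slc7a11 and Chac1. Between these ends the roles were mixed. The chaperone cofactor gene Dnajb9 (6.60 CPM per kilobase of exon) lay below Asns (6.90), a gene of the Atf4 amino acid response. Averaged over the 12 libraries, the lectin chaperone gene Calr was at 115 ± 25.8 CPM per kilobase of exon (SD), the disulfide isomerase gene Pdia3 at 83.8 ± 14.1 and the lectin chaperone gene Canx at 76.3 ± 11.3. The ER Hsp70 gene Hspa5, which encodes BiP, followed at 68.0 ± 23.0 CPM per kilobase and the ER Hsp90 gene Hsp90b1, which encodes GRP94, at 59.1 ± 13.7. These neighbours in the order were not separated beyond their spread, since Calr ranged from 70.7 to 158 and Hsp90b1 from 34.4 to 80.3 CPM per kilobase. Among the sensors, Ern1 was at 9.14, Eif2ak3 at 7.66 and Atf6 at 6.56 CPM per kilobase, and over the libraries they spanned 7.71 to 10.3, 6.19 to 9.11 and 5.87 to 7.22. Of the transcription factor genes, Xbp1 was at 36.1 and Atf4 at 36.2 CPM per kilobase, while Ddit3, which encodes the pro-apoptotic factor CHOP, was at 6.401. At the low end were Slc7a11 at 0.385 and Chac1 at 0.559 CPM per kilobase, and the pseudokinase gene Trib3 at 0.110. Trib3 had 0 to 6 counts per library and Chac1, which encodes a glutathione-degrading enzyme, had 2 to 26, so neither was tested.

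**Figure D1:**
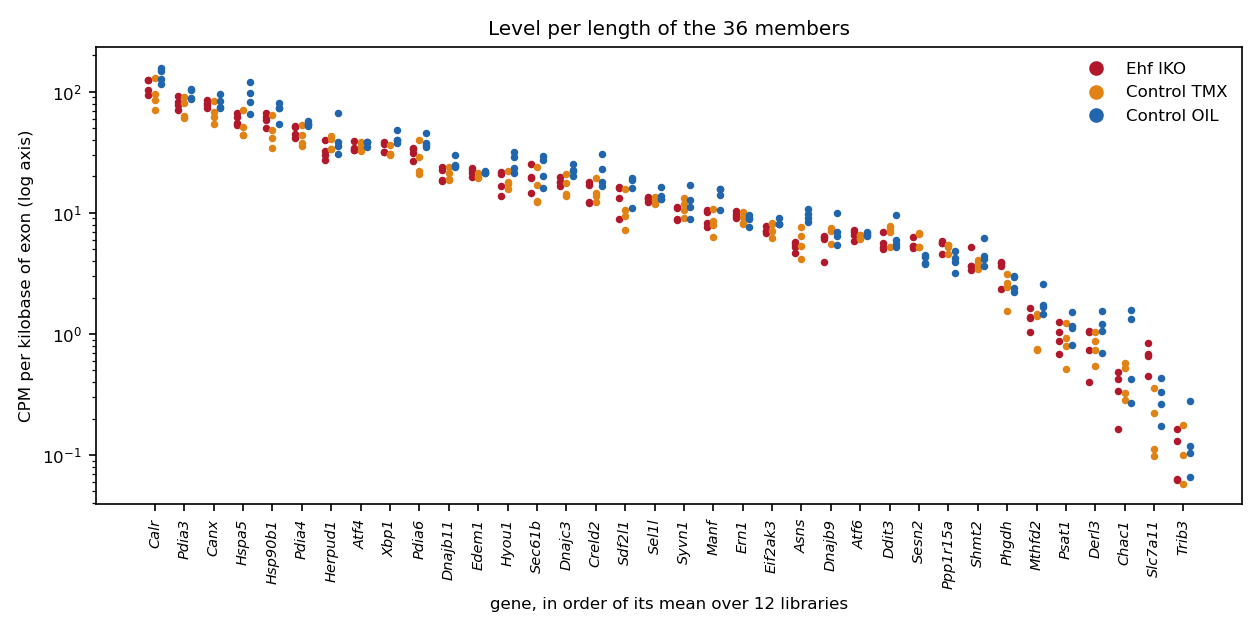
Level of each of the 36 members in the 12 libraries, in CPM per kilobase of exon on a log axis, with genes in order of their mean and the groups side by side. Calr is highest at a mean of 115 and Trib3 lowest at 0.110, and the 1 library with no Trib3 count (Control TMX replicate 1) is not drawn.

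Promoter sequences from RefSeq (build GRCm38.p6, 250 bases before to 50 after the start site) were found for 33 of the 36 members, all but Atf6, Hyou1 and Manf, and were searched on both strands. The ER stress response element, CCAAT and CCACG with 9 bases between them, is the site that NF-Y and ATF6 are known to share. It was present in 9 of the 33 promoters (Hspa5, Hsp90b1, Dnajc3, Creld2, Calr, Canx, Pdia6, Syvn1 and Derl3), against 0.119% of all 32851 promoters of this length. Its second form, ATTGG and CCACG with 1 base between them, was found in Dnajb11 and Herpud1 (0.0365% of all promoters). The unfolded protein response element spelled TGACGTGG was in none of the 33 (0.676% of all). The C/EBP-ATF response element spelled TGATGNAA, a site type bound by ATF4, was in Herpud1, Trib3, Chac1, Asns and Slc7a11 (3.97% of all). No match overlapped another. The matches to the first form in the 7 chaperone and isomerase promoters are set out below to show which letters they share, with the fixed letters of the element in capitals, read 5′ to 3′ on the strand that matches.
Hspa5, chr2:34772025-34772043, plus strand: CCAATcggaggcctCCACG
Hsp90b1, chr10:86705533-86705551, plus strand: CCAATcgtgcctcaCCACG
Hsp90b1, chr10:86705638-86705656, minus strand: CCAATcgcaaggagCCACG
Dnajc3, chr14:118937827-118937845, plus strand: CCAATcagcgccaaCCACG
Creld2, chr15:88819520-88819538, minus strand: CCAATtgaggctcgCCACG
Calr, chr8:84847075-84847093, plus strand: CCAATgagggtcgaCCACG
Canx, chr11:50325800-50325818, minus strand: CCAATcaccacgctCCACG
Pdia6, chr12:17266491-17266509, plus strand: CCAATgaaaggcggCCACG
Only the outer letters are shared in these matches, and the 9 bases between them differ from gene to gene. A match is a description of the letters, and says nothing of binding in these mice.

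In Ehf IKO, 2 members passed the test in some comparison in the fit on the groups alone, and both belong to the amino acid arm under Atf4. Slc7a11, the cystine importer, rose, and Asns, the asparagine synthetase, fell. A gene was called at a Benjamini-Hochberg adjusted p under 0.05 in edgeR's quasi-likelihood test over all genes. Against the mean of both controls 1 of 34 members was called, Slc7a11, while 1.72% of all genes tested were called. Against Control TMX 1 of 34 was called, again Slc7a11, with 0.8% of all genes called. Against Control OIL 1 of 34 was called, Asns, with 1.68% of all genes called. The median log2 fold change of the 34 members was -0.07 against the mean of both controls, 0.11 against Control TMX and -0.26 against Control OIL, where the medians over all genes were 0.01, 0.02 and -0.01. Both comparisons with a single control share the Ehf IKO libraries, and Control TMX differs from Ehf IKO in line and genotype, Control OIL in genotype and tamoxifen.

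**Figure D2:**
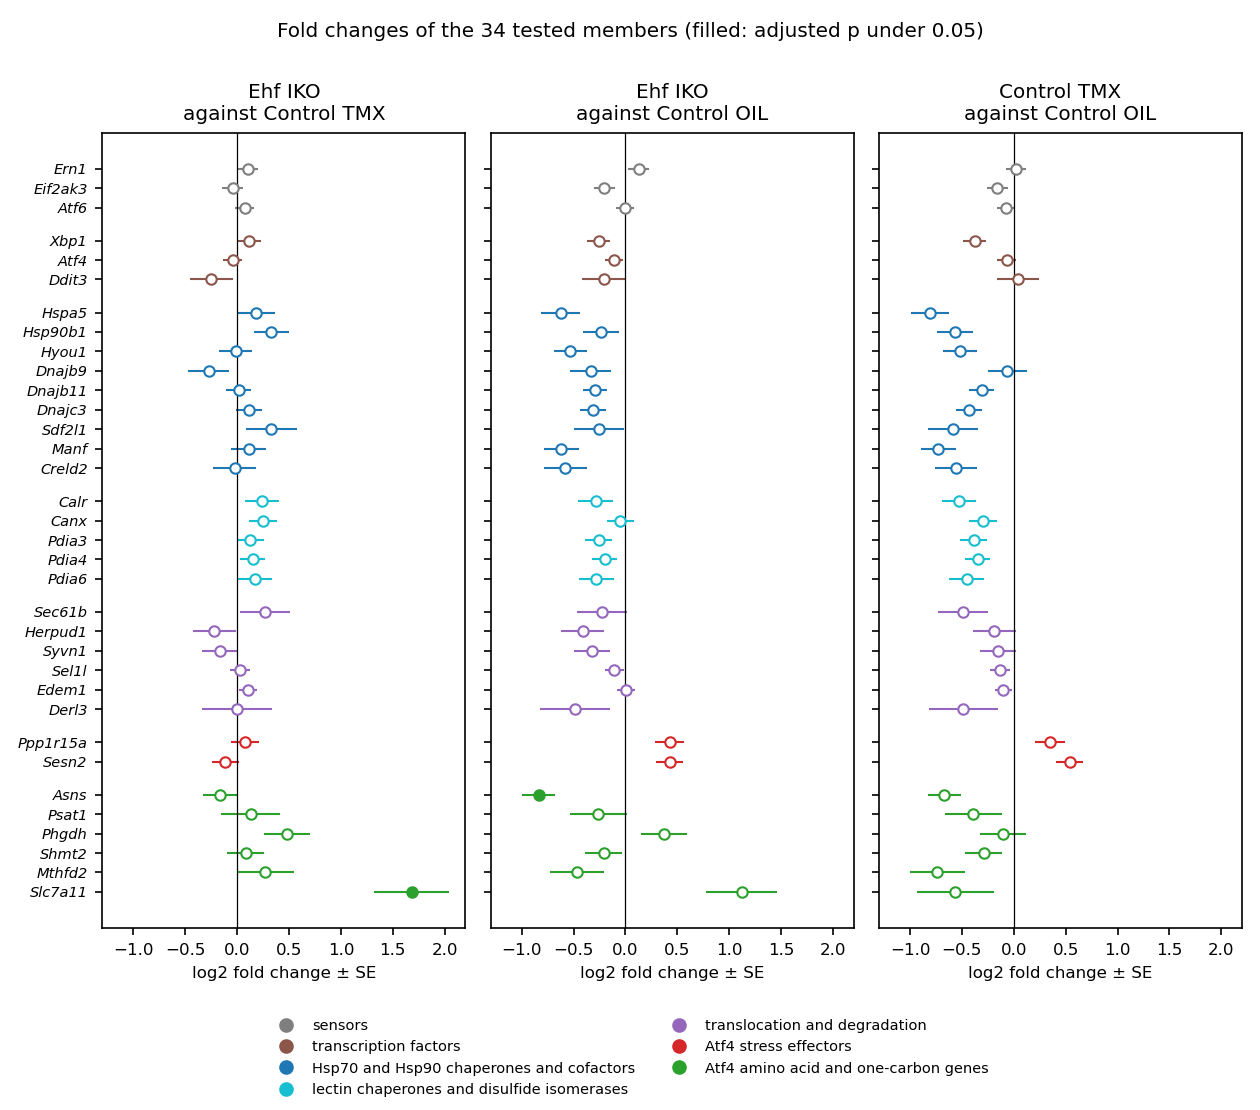
Log2 fold change ± SE (edgeR) of the 34 tested members in 3 comparisons, with genes grouped and coloured by role and filled points for an adjusted p under 0.05. Slc7a11 stands apart at 1.68 against Control TMX, and the chaperone and isomerase genes lie left of 0 in both comparisons with Control OIL.

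Slc7a11 (ENSMUSG00000027737, chromosome 3, 49892526 to 50443614, minus strand) encodes xCT, which brings in cystine for glutathione synthesis in exchange for glutamate. It was at 9.55, 9.11, 6.25 and 11.7 CPM in the Ehf IKO libraries, 1.55, 1.36, 3.07 and 4.96 CPM in Control TMX and 4.61, 2.43, 3.69 and 6.02 CPM in Control OIL. All 4 Ehf IKO libraries lay above all 8 controls, though the lowest Ehf IKO library and the highest Control OIL library were close, and Control TMX replicates 1 and 2 were lowest. Non-overlap in this direction was seen in 1.17% of all genes tested. Over the controls' mean Slc7a11 rose 2.64-fold, a log2 fold change of 1.40 ± 0.29 (edgeR adjusted p = 0.0229). Against Control TMX it rose by 1.68 ± 0.36 (edgeR adjusted p = 0.0391), and against Control OIL its log2 fold change was 1.12 ± 0.34 (edgeR adjusted p = 0.139, not called). With no filter (edgeR adjusted p = 8.2e-04) or the cycling cell score as a covariate (edgeR adjusted p = 0.0290), Slc7a11 was called against Control OIL too. The difference had the same sign in the libraries with Xist (1.95 against the mean of both controls) and in those with Y-linked counts (0.96). The call against the mean of both controls was lost without Ehf IKO replicate 1 (log2 fold change 1.38, edgeR adjusted p = 0.0779) or replicate 2 (1.40, edgeR adjusted p = 0.0697), and with the fibroblast marker score as a covariate (1.39, edgeR adjusted p = 0.243) or the plasma cell score (1.48, edgeR adjusted p = 0.0836). That against Control TMX was lost on leaving out any of 8 of the 12 libraries, and the edgeR adjusted p reached 0.140 without Control TMX replicate 2.

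The promoter of Slc7a11 (RefSeq, GRCm38.p6, chr3:50443564-50443863, minus strand, read in the gene's direction) is shown because this gene has the largest change of the list, with both copies of the C/EBP-ATF element in capitals, the second on the opposite strand.
Slc7a11: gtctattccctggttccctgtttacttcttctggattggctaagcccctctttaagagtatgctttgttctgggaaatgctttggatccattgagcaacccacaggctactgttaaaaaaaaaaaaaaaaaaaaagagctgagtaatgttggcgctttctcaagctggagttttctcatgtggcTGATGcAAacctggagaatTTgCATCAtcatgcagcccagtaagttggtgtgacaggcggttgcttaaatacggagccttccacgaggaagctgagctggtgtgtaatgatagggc
The first copy begins 66 bases before the start site and the second 47 bases before it.

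Asns (ENSMUSG00000029752, chromosome 6, 7675169 to 7693254, minus strand) encodes asparagine synthetase, which makes asparagine from aspartate and glutamine. Its level was 14.3, 12.7, 15.2 and 15.9 CPM in Ehf IKO, 11.5, 14.7, 17.5 and 20.9 CPM in Control TMX and 29.6, 23.0, 26.6 and 24.7 CPM in Control OIL. Every Ehf IKO and every Control TMX library lay below every Control OIL library, and the ranges of Ehf IKO and Control TMX overlapped. Asns fell by 0.84 ± 0.16 on the log2 scale in Ehf IKO against Control OIL (edgeR adjusted p = 0.0170), while 3.29% of all genes tested lay below Control OIL without overlap. Against Control TMX its log2 fold change was -0.17 ± 0.16 (edgeR adjusted p = 0.744), and over the controls' mean -0.50 ± 0.14 (edgeR adjusted p = 0.104), neither of them called in this fit. Over the controls' mean Asns was called by DESeq2 (DESeq2 adjusted p = 0.0449). There edgeR also called it with no filter (edgeR adjusted p = 0.0214), with the cycling cell score (0.00636) and without Control TMX replicate 1 (0.0405). The call against Control OIL was lost without Ehf IKO replicate 1 (edgeR adjusted p = 0.0577), 2 (0.0561) or 3 (0.0502), with log2 fold changes of -0.83, -0.78 and -0.86 in these fits, and with the fibroblast score as a covariate (log2 fold change -1.002, edgeR adjusted p = 0.255). The promoter of Asns (RefSeq, GRCm38.p6, chr6:7693160-7693459, minus strand, read in the gene's direction) is shown for comparison with Slc7a11, with its single C/EBP-ATF element in capitals, which begins 23 bases before the start site.
Asns: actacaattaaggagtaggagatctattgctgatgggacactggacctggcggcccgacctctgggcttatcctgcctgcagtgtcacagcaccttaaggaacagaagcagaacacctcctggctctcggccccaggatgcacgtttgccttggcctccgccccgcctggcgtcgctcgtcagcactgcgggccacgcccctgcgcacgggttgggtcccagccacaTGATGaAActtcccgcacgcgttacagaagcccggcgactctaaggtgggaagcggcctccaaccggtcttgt

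The other genes of amino acid and 1-carbon metabolism were not called in any comparison. Phgdh, Psat1, Shmt2 and Mthfd2 were all higher in Ehf IKO than in Control TMX, with log2 fold changes of 0.08 to 0.48, and against Control OIL Phgdh was higher and the other 3 lower. In Control TMX against Control OIL all 4 were lower, at -0.74 to -0.11, and these comparisons share the Control TMX and the Control OIL libraries. Phgdh, the entry enzyme of serine synthesis, was at 9.55, 5.80, 9.05 and 9.81 CPM in Ehf IKO, 3.88, 6.06, 6.57 and 7.76 CPM in Control TMX and 6.01, 5.53, 7.52 and 7.41 CPM in Control OIL. Its groups overlapped, with a log2 fold change of 0.42 ± 0.19 over the controls' mean (unadjusted p = 0.0394, edgeR adjusted p = 0.390). Psat1, the next enzyme of the pathway, averaged 4.11 ± 1.05 CPM in Ehf IKO, 3.69 ± 1.27 CPM in Control TMX and 4.92 ± 1.26 CPM in Control OIL (SD, n = 4). The mitochondrial folate enzyme genes Shmt2 and Mthfd2 had log2 fold changes of -0.06 ± 0.16 and -0.10 ± 0.23 against the mean of both controls. Mthfd2 was lowest in Control TMX replicates 1 and 2, at 2.64 and 2.595 CPM, and highest in Control OIL replicate 1, at 9.08 CPM.

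The sensor and transcription factor genes differed little between groups and none was called. Eif2ak3 (ENSMUSG00000031668, chromosome 6, 70844515 to 70905245, plus strand) was at 42.7, 41.4, 43.1 and 46.9 CPM in Ehf IKO, 37.3, 43.1, 48.5 and 50.2 CPM in Control TMX and 54.9, 48.6, 48.4 and 48.7 CPM in Control OIL. All Ehf IKO libraries lay below all Control OIL libraries, as for 3.29% of all genes tested. The log2 fold change was -0.20 ± 0.10 (edgeR adjusted p = 0.479), and the Control TMX libraries overlapped both groups. Ern1 had a log2 fold change of 0.12 ± 0.09 and Atf6 of 0.04 ± 0.08 against the mean of both controls. Xbp1 (ENSMUSG00000020484, chromosome 11, 5520659 to 5525893, plus strand), whose mRNA is spliced by IRE1, was at 119.8, 104, 104 and 125 CPM in Ehf IKO, 99.6, 97.9, 99.5 and 119 CPM in Control TMX and 159, 122, 130.4 and 129.7 CPM in Control OIL. Control TMX lay wholly below Control OIL, with a log2 fold change of -0.38 ± 0.11 (edgeR adjusted p = 0.209), and Ehf IKO overlapped both, with -0.26 ± 0.11 against Control OIL (edgeR adjusted p = 0.336). Counts per gene do not separate spliced from unspliced Xbp1, so they do not measure IRE1 activity. Atf4, which is controlled largely at translation, had a log2 fold change of -0.08 ± 0.08 against the mean of both controls, and Ddit3 of -0.23 ± 0.18.

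The ER chaperone and isomerase genes were lower in both tamoxifen-treated groups than in Control OIL, and whether single genes were called depended on the fit. All 14 of them were lower in Ehf IKO than in Control OIL, with a median log2 fold change of -0.29, and 6 of the 14 were lower at an unadjusted p under 0.05, where 5.07% of all genes tested were. None of these passed the adjustment over all genes in edgeR's fit on the groups alone, the smallest adjusted p being 0.0786 for Manf, and DESeq2 called Hspa5 and Manf. With the log2 difference of Xist and Y-linked levels as a covariate, edgeR called Manf (adjusted p = 0.0138), Hyou1 (0.0155), Hspa5 (0.0236) and Creld2 (0.0480), at log2 fold changes of -0.61, -0.53, -0.60 and -0.56. With the replicate number as a block it called Manf (edgeR adjusted p = 0.0263), Hyou1 (0.0344) and Hspa5 (0.0437). Manf was also called without Control OIL replicate 2, together with Hspa5, without Ehf IKO replicate 4, together with Hyou1, and with the cycling cell score as a covariate (edgeR adjusted p = 0.0290). Called lower in these fits were 111 of 16105, 258 of 16139 and 175 of 15743 genes. With no filter edgeR called Hspa5 (edgeR adjusted p = 3.4e-05), Manf (8.4e-04), Hyou1 (0.00104) and Creld2 (0.0105), and 289 of 41205 genes were called lower. Against Control TMX 11 of the 14 were higher, with a median of 0.14 and none at an unadjusted p under 0.05, where 11.9% of all genes were. A lower log2 fold change was seen in 51.3% of all genes against Control OIL, and a higher one in 52.6% against Control TMX. In bulk RNA, fewer cells of a type and less RNA per cell cannot be told apart.

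Hspa5 (ENSMUSG00000026864, chromosome 2, 34771970 to 34777547, plus strand), the central ER chaperone that also holds the sensors inactive, was at 227, 234, 283 and 264 CPM in Ehf IKO, 186, 185, 219 and 300.2 CPM in Control TMX and 350.3, 276, 415 and 513 CPM in Control OIL. Control OIL replicates 3 and 4 were the 2 highest libraries, and Control OIL replicate 2 overlapped the upper end of the other groups. The log2 fold change was -0.63 ± 0.18 in Ehf IKO against Control OIL (edgeR adjusted p = 0.115). Set against Control TMX it was 0.18 ± 0.18 (edgeR adjusted p = 0.757). Its promoter (RefSeq, GRCm38.p6, chr2:34771840-34772139, plus strand) is shown as the best known target of the response, with its exact match to the ER stress response element in capitals.
Hspa5: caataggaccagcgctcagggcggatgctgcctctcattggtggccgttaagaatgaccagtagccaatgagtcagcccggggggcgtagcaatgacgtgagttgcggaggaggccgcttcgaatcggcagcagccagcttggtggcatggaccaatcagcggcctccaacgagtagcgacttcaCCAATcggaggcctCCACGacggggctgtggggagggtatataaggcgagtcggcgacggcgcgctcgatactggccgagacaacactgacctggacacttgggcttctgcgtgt
The match begins 65 bases before the start site. Hsp90b1, whose level followed that of Hspa5 from library to library, holds 2 copies on opposite strands in its promoter (RefSeq, GRCm38.p6, chr10:86705395-86705694, minus strand, read in the gene's direction).
Hsp90b1: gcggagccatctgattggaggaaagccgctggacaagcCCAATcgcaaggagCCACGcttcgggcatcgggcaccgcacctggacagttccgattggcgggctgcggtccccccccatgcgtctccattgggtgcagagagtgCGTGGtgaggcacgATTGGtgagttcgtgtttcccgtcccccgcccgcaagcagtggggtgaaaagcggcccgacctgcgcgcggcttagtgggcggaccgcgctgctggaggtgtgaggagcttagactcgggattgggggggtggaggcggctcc

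Manf (ENSMUSG00000032575, chromosome 9, 106838312 to 106891979, minus strand), a secreted and ER-resident stress protein that binds BiP, was at 27.0, 28.8, 36.2 and 36.9 CPM in Ehf IKO, 28.0, 22.5, 30.4 and 38.2 CPM in Control TMX and 49.7, 37.5, 55.4 and 55.3 CPM in Control OIL. Ehf IKO lay below Control OIL without overlap, by a log2 fold change of -0.62 ± 0.17 (edgeR adjusted p = 0.0786), and overlapped Control TMX. Exons of other genes cover 9.25% of the Manf exons and 15.7% of those of Hsp90b1, and the counting did not use strand, so reads there are of uncertain origin. Among the lectin chaperones, Calr (ENSMUSG00000003814, chromosome 8, 84841850 to 84846934, minus strand) was at 272, 300.3, 362 and 364 CPM in Ehf IKO, 246, 204, 275 and 372 CPM in Control TMX and 455, 337, 425 and 369 CPM in Control OIL. Its log2 fold change was -0.29 ± 0.17 against Control OIL and 0.24 ± 0.17 against Control TMX, and each pair of groups overlapped. Canx (ENSMUSG00000020368, chromosome 11, 50293961 to 50325673, minus strand), its membrane-bound relative, stayed within 345 to 403 CPM in Ehf IKO, 253 to 394 CPM in Control TMX and 345 to 449 CPM in Control OIL. The log2 fold changes of Canx were -0.05 ± 0.13 against Control OIL and 0.25 ± 0.13 against Control TMX, and neither was called.

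Pdia3 (ENSMUSG00000027248, chromosome 2, 121413775 to 121438687, plus strand), the isomerase that works with both lectins, was at 224 to 289 CPM in Ehf IKO, 192 to 282 CPM in Control TMX and 276 to 333 CPM in Control OIL, with a log2 fold change of -0.26 ± 0.13 against Control OIL. The isomerase genes Pdia4 and Pdia6 lay below Control OIL without overlap in Ehf IKO, at log2 fold changes of -0.20 ± 0.12 and -0.28 ± 0.17. The BiP cofactor gene Dnajc3 lay below Control OIL without overlap as well, at -0.32 ± 0.12 on the log2 scale (unadjusted p = 0.0224, edgeR adjusted p = 0.291). Together with Manf these made 4 of the 14 below Control OIL without overlap, where 3.29% of all genes were. Hyou1, the large ER Hsp70 relative, had a log2 fold change of -0.53 ± 0.16 against Control OIL (edgeR adjusted p = 0.122), and Creld2, a secreted stress protein, -0.58 ± 0.21 (edgeR adjusted p = 0.215). For Dnajb11 it was -0.30 ± 0.12, for Sdf2l1 -0.26 ± 0.24 and for Dnajb9 -0.34 ± 0.19, all 3 encoding partners of BiP.

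**Figure D3:**
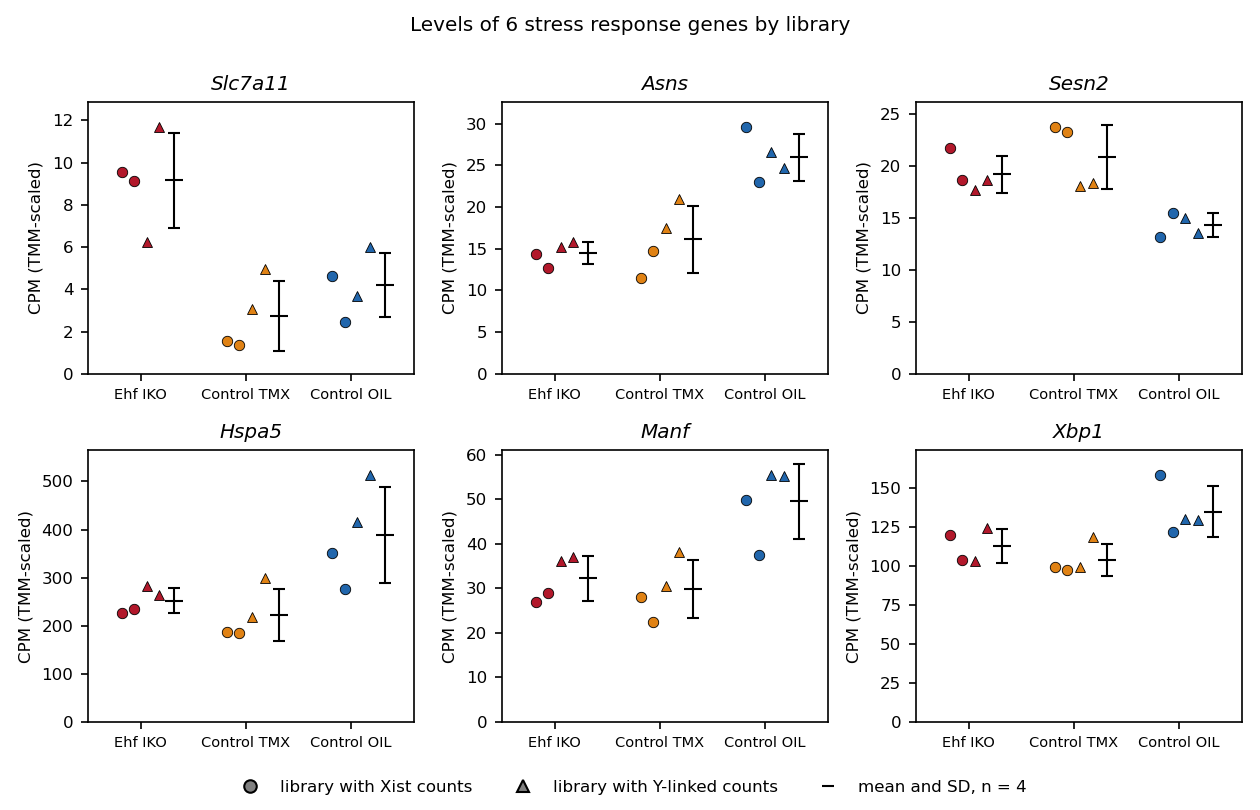
CPM of 6 members in each library, with circles for libraries with Xist counts, triangles for those with Y-linked counts, and bars for the mean and SD of each group (n = 4). Slc7a11 is highest in Ehf IKO, while Asns, Hspa5, Manf and Xbp1 are highest and Sesn2 lowest in Control OIL.

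None of the 6 genes of translocation and ER-associated degradation was called in edgeR's fit on the groups alone, and 5 of them were lower in Ehf IKO than in Control OIL. With no filter edgeR called Herpud1 in that comparison (edgeR adjusted p = 0.0373). Sec61b (ENSMUSG00000053317, chromosome 4, 47474658 to 47483242, plus strand), a subunit of the translocation channel, was at 25.4, 18.5, 24.7 and 32.2 CPM in Ehf IKO, 15.8, 15.6, 21.5 and 30.5 CPM in Control TMX and 37.3, 25.9, 34.9 and 20.2 CPM in Control OIL. The groups overlapped throughout, and its log2 fold change was -0.22 ± 0.24 in Ehf IKO against Control OIL. Herpud1 (ENSMUSG00000031770, chromosome 8, 94386438 to 94395377, plus strand), a membrane protein of the degradation complex, was at 63.4, 75.8, 70.6 and 93.0 CPM in Ehf IKO, 94.4, 101.3, 78.1 and 79.4 CPM in Control TMX and 72.1, 83.2, 89.3 and 157 CPM in Control OIL, with Control OIL replicate 4 the highest library by far. The ubiquitin ligase gene Syvn1 was also highest in Control OIL replicate 4, at 82.5 CPM, as was Sel1l, which encodes the ligase's adaptor, at 140.1 CPM. Edem1, a mannosidase-like lectin gene that marks proteins for disposal, was at 140.5 ± 10.6 CPM in Ehf IKO, 131 ± 5.42 CPM in Control TMX and 140.0 ± 2.93 CPM in Control OIL (SD, n = 4). Derl3, of the derlin family, was at 0.806 to 3.06 CPM over all libraries.

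The Atf4 stress effector genes that could be tested were higher in both tamoxifen-treated groups than in Control OIL, opposite to the chaperones. Neither was called in edgeR's fit on the groups alone, while DESeq2 called Sesn2 in Control TMX against Control OIL (DESeq2 adjusted p = 0.0284). Ppp1r15a (ENSMUSG00000040435, chromosome 7, 45522916 to 45526268, minus strand) encodes GADD34, which ends the response by directing phosphatase to eIF2. It was at 16.5, 17.1, 16.6 and 13.6 CPM in Ehf IKO, 15.2, 16.1, 15.9 and 13.5 CPM in Control TMX and 14.1, 12.5, 9.43 and 11.6 CPM in Control OIL. Only Control OIL replicate 1 and the lowest library of each of the other groups overlapped, and the log2 fold change was 0.43 ± 0.14 in Ehf IKO against Control OIL (edgeR adjusted p = 0.174). Sesn2 (ENSMUSG00000028893, chromosome 4, 132492032 to 132510501, minus strand), a leucine-binding inhibitor of mTORC1 signalling, was at 21.8, 18.6, 17.7 and 18.7 CPM in Ehf IKO, 23.8, 23.2, 18.1 and 18.3 CPM in Control TMX and 13.1, 15.5, 15.03 and 13.5 CPM in Control OIL. All 8 libraries of tamoxifen-treated mice lay above all 4 Control OIL libraries. Its log2 fold change was 0.43 ± 0.13 in Ehf IKO against Control OIL (edgeR adjusted p = 0.138). Set against Control TMX it was -0.11 ± 0.13 (edgeR adjusted p = 0.786). Without overlap above Control OIL lay 3.25% of all genes in Ehf IKO. Trib3 and Chac1 had at most 0.349 and 0.798 CPM in Ehf IKO, 0.374 and 0.935 CPM in Control TMX and 0.592 and 2.57 CPM in Control OIL.

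Between the controls, most members were lower in Control TMX than in Control OIL and none was called in edgeR's fit on the groups alone. Of the 34 tested, 30 were lower and 4 higher, with a median log2 fold change of -0.36, where 51.5% of all genes were lower. An unadjusted p under 0.05 was reached by 18 of the 34 (52.9%), where 12.9% of all genes did. These were 16 lower and 2 higher members, where 6.23% of all genes were lower and 6.65% higher at that p. After adjustment over all genes edgeR called 0 of the 34 and 0.0826% of all genes. DESeq2 called 4 members (Hspa5, Manf, Asns and Sesn2), and of all 15743 genes it called 121 higher and 75 lower. Hspa5 and Manf were also called by edgeR with the Xist and Y-linked difference as a covariate (adjusted p = 0.0148 for each), with the replicate block (0.0377 for each) and without Control OIL replicate 2 or Control TMX replicate 4, where Asns was called too in the last of these. Called lower in these fits, in that order, were 12, 9, 42 and 31 of the 15743 to 16105 genes tested. With no filter edgeR called 8 members lower (Hspa5, Manf, Asns, Calr, Creld2, Hsp90b1, Hyou1 and Pdia6), and 171 of 41205 genes. Of the 14 chaperone and isomerase genes all were lower and 13 had an unadjusted p under 0.05, with a median log2 fold change of -0.49 and values down to -0.80 ± 0.18 for Hspa5 (edgeR adjusted p = 0.129) and -0.73 ± 0.17 for Manf (edgeR adjusted p = 0.126). Calr was at -0.53 ± 0.17, Pdia3 at -0.39 ± 0.13 and Canx at -0.30 ± 0.13, while Dnajb9, which encodes a BiP partner that restrains IRE1, was at -0.06 ± 0.19. The 2 higher ones at that p were Sesn2, at 0.54 ± 0.13 (edgeR adjusted p = 0.145), and Ppp1r15a, at 0.35 ± 0.14 (edgeR adjusted p = 0.321). Asns was at -0.67 ± 0.16 (edgeR adjusted p = 0.136) and lay without overlap below Control OIL, as did Xbp1 and 3.2% of all genes, while Sesn2 lay above it with 3.68% of all genes. These groups differ in both line and tamoxifen, whose parts cannot be told apart.

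Marker levels of other cell types differed between groups as well, in directions that varied by cell type and comparison. The summed level of 10 cycling cell markers was 694 to 1074 CPM in Ehf IKO, 378 to 872 CPM in Control TMX and 766 to 845 CPM in Control OIL, and it was lowest in Control TMX replicates 1 and 2, which also had the lowest mean chaperone levels of their group. All 10 cycling markers were lower in Control TMX than in Control OIL and 4 had an unadjusted p under 0.05. In Ehf IKO against Control OIL 4 of them were higher and 6 lower, with a median log2 fold change of -0.01. With the cycling score as a covariate, chosen after seeing the data, the chaperone median was -0.22 in Control TMX against Control OIL and -0.06 in Ehf IKO against Control TMX. Between the controls 6 of the 34 members then had an unadjusted p under 0.05, against 18 without the covariate. Of all 15743 genes tested 1068 did so with it and 2028 without it. In Ehf IKO against Control OIL the chaperone median was -0.26 with that covariate and -0.29 without it. There 15 members had an unadjusted p under 0.05, against 11 without it, and 2145 of all genes did, against 1876. The summed level of 10 fibroblast markers was 417 to 1024 CPM in Ehf IKO, 433 to 742 CPM in Control TMX and 308 to 419 CPM in Control OIL. All 9 tested fibroblast markers were higher in Ehf IKO than in Control OIL, 3 of them called, and with their score as a covariate the chaperone median was -0.53 in Ehf IKO and -0.62 in Control TMX, both against Control OIL. Plasma cells, which hold much of this machinery, gave summed marker levels of 248 to 362 CPM in Ehf IKO, 177 to 239 CPM in Control TMX and 206 to 269 CPM in Control OIL. All 6 tested plasma cell markers were higher in Ehf IKO than in either control, with no call, and with their score as a covariate the chaperone median against Control OIL was -0.30 in Ehf IKO and -0.49 in Control TMX. All 10 colonocyte markers were higher in both Ehf IKO (median log2 fold change 0.46) and Control TMX (0.47) than in Control OIL, with no call, and their summed level was 5514 to 9483 CPM in Ehf IKO, 7541 to 8097 CPM in Control TMX and 3844 to 7027 CPM in Control OIL. Of 6 smooth muscle markers 5 were higher than in Control OIL in both groups, with medians of 0.83 in Ehf IKO and 1.29 in Control TMX, and 2 and 5 of them had an unadjusted p under 0.05. Their summed level was 21.1 to 75.2 CPM in Ehf IKO, 39.5 to 93.2 CPM in Control TMX and 14.8 to 40.3 CPM in Control OIL. Of 10 epithelial markers 9 were higher in Ehf IKO than in Control OIL, with 1 called (edgeR adjusted p = 0.0438). In Control TMX 7 of these were higher than in Control OIL and 3 lower, with no call. Of 7 tested leukocyte markers 5 were higher and 2 lower in Ehf IKO against Control OIL. In Control TMX 2 of the leukocyte markers were higher and 5 lower, with no call in either comparison. The part of colonocytes, smooth muscle, epithelial content and leukocytes in the chaperone difference was not tested. No marker of these lists was at 0 in every library.

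**Figure D4:**
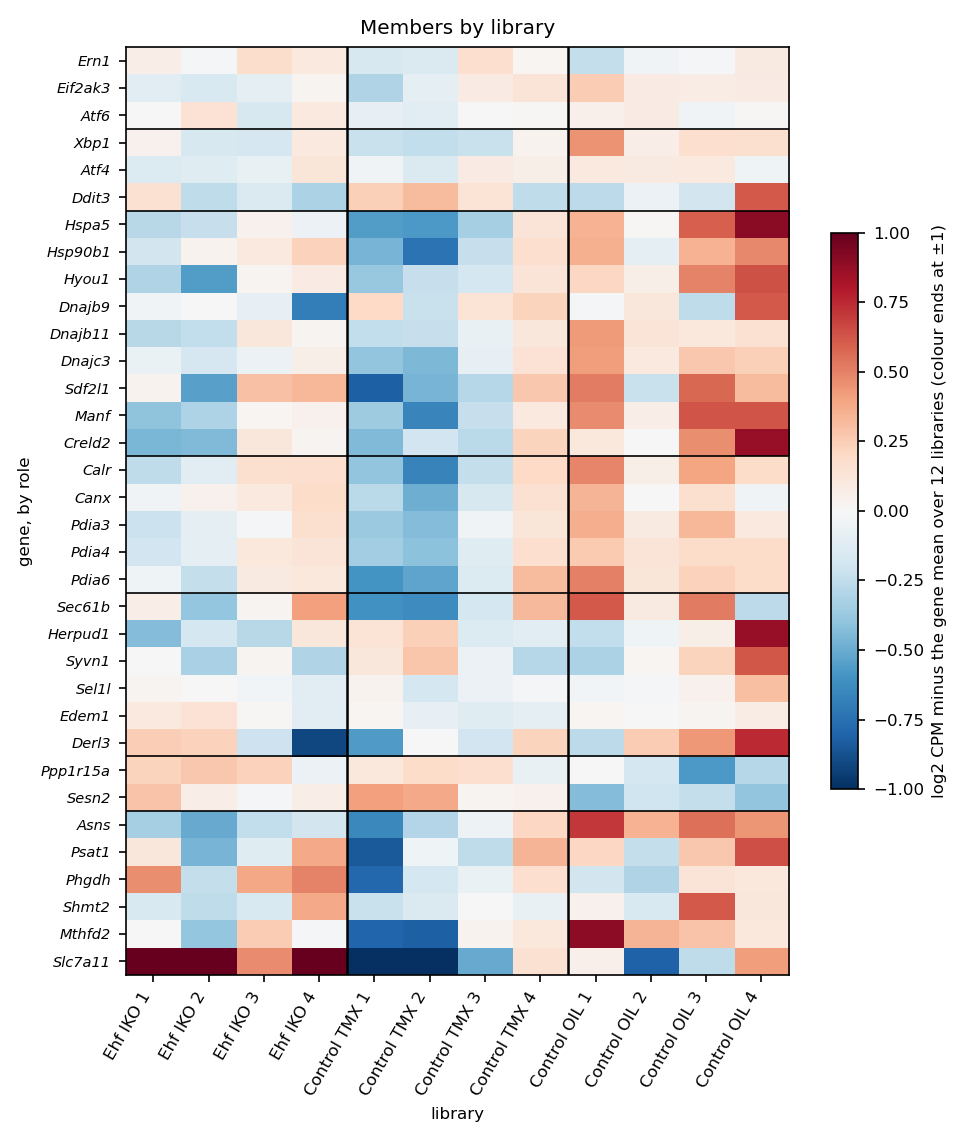
Log2 CPM of the 34 tested members in each library, minus the gene's mean over the 12 libraries, with genes grouped by role and colour ending at 1 either side. The chaperone block is darkest blue in Control TMX replicates 1 and 2 and red in Control OIL replicates 1, 3 and 4, and the bottom line shows Slc7a11 high in Ehf IKO.

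Over all 12 libraries, with no group mean subtracted, 14 of the 34 tested members had their lowest level in Control TMX replicate 2, which was lowest for 12.6% of all genes, and 11 had their highest level in Control OIL replicate 4, which was highest for 11% of all genes. Control OIL replicate 1 was highest for 12 members and for 13.7% of all genes. These extremes also carry the differences between groups. Within groups, most chaperones were high or low together in the same libraries. Relative to the mean of their own group, 13 of the 14 chaperone and isomerase genes were high in Ehf IKO replicates 3 and 4, and 14 and 12 in Control TMX replicates 4 and 3. At most 2 of the 14 were high in replicates 1 and 2 of these groups, and in Control OIL the number was 10, 0, 10 and 7 in replicates 1 to 4. The libraries with Y-linked counts thus had higher levels than those with Xist for 13 of 14 genes in Ehf IKO (median difference 0.25 on the log2 scale), all 14 in Control TMX (0.44) and 8 of 14 in Control OIL (0.07), values given with no test. Among the libraries with Xist alone, the chaperone median was -0.42 in Ehf IKO and -0.65 in Control TMX against Control OIL, and among those with Y-linked counts -0.20 and -0.27.

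Over the 12 libraries, each gene centred on its group mean, 82 of the 91 pairs among the 14 chaperone and isomerase genes were positively correlated, with a median Pearson r of 0.74, and 84 of 91 with a median of 0.67 when each was also centred on the Xist and the Y-linked libraries of its group. The 5 lectin chaperones and isomerases had r between 0.86 and 0.95 for all 10 pairs, and between 0.56 and 0.99 with the second centring, while Dnajb9 had r between -0.27 and 0.28 to the other 13. These r describe libraries that also vary in depth and cell makeup. Of 10 pairs tested by exact permutation within groups (13824 permutations, two-sided), 2 passed after Benjamini-Hochberg adjustment over the 10. The permutations did not keep the Xist and the Y-linked libraries apart, and centred on these as well the 2 pairs had r = 0.80 (Hspa5 and Hsp90b1) and r = 0.69 (Hspa5 and Hyou1), values given with no test. Hspa5 and Hsp90b1 had r = 0.88 (exact permutation p = 8.7e-04, adjusted p = 0.00434) and rho = 0.85 (exact permutation p = 0.00383, adjusted p = 0.0192), and r was 0.81 without the 2 libraries farthest from the median of Hspa5. Hspa5 and Hyou1 had r = 0.85 (exact permutation p = 8.0e-04, adjusted p = 0.00434) and rho = 0.83 (exact permutation p = 0.00383, adjusted p = 0.0192), with r = 0.78 without those libraries. Hspa5 and Xbp1 gave r = 0.31 (exact permutation adjusted p = 0.438), Atf4 and Asns r = 0.53 (exact permutation adjusted p = 0.186), and Ddit3 and Ppp1r15a r = 0.20 (exact permutation adjusted p = 0.646). The other 5 pairs had r of 0.61 for Hspa5 and Pdia6, 0.74 for Asns and Psat1, 0.59 for Hspa5 and Asns, 0.67 for Mthfd2 and the cycling marker Mki67, and 0.38 for Derl3 and the plasma cell marker Jchain, none of which passed (exact permutation adjusted p of 0.0887 to 0.438). Sesn2 ran opposite to the chaperones, with r below 0 to all 14 and down to -0.82 for Pdia4.

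**Figure D5:**
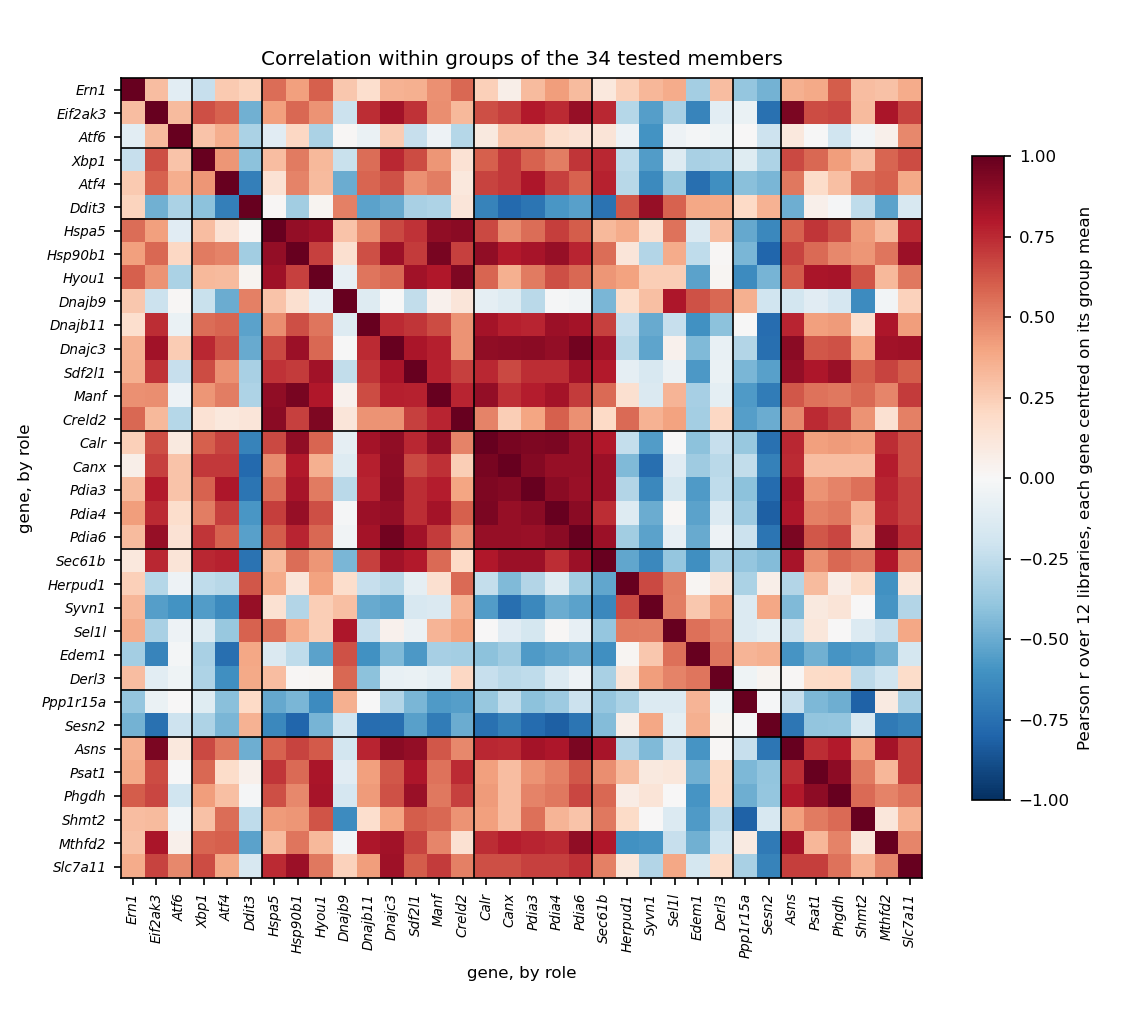
Pearson r over the 12 libraries between the 34 tested members, each centred on its group mean, with genes grouped by role. The chaperone and isomerase block is red for 82 of its 91 pairs, Dnajb9 stands out as pale, and Sesn2 is blue against the whole block.

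Among genes of the same pathways outside the 36, 4 genes of the ER fell. Of 44 other genes of ER folding, translocation and degradation, 4 fell against the mean of both controls, 3 against Control TMX and 2 against Control OIL, and none rose. Of all genes tested, 1.72%, 0.8% and 1.68% were called in these comparisons, in either direction. Pdia5, an ER disulfide isomerase gene, was at 31.7, 26.4, 38.2 and 37.7 CPM in Ehf IKO, 51.7, 53.8, 44.6 and 56.7 CPM in Control TMX and 54.4, 57.2, 41.0 and 58.5 CPM in Control OIL. Its Ehf IKO libraries lay below all Control OIL libraries, as for 3.29% of all genes tested. Over the controls' mean its log2 value fell by 0.64 ± 0.12 (edgeR adjusted p = 0.0144), and it was called against each control, though 10 single libraries ended the call against Control TMX and 5 that against Control OIL when left out. Creb3l1, which encodes an ER-bound transcription factor, was at 71.9, 62.8, 88.1 and 120.0 CPM in Ehf IKO, 148, 172, 139.4 and 134.8 CPM in Control TMX and 134, 129, 112.7 and 123 CPM in Control OIL. Ehf IKO replicate 4 reached into the range of Control OIL, and Creb3l1 fell by 0.67 ± 0.14 on the log2 scale over the controls' mean (edgeR adjusted p = 0.0260). Against Control TMX it fell by 0.79 ± 0.16 (edgeR adjusted p = 0.0304), a call lost in 11 of 24 alternative fits. Ern2, the IRE1 homologue of mucus-secreting epithelium, was at 127, 116, 137.03 and 140.4 CPM in Ehf IKO, 162, 192, 196 and 185 CPM in Control TMX and 154, 179.7, 142 and 178 CPM in Control OIL. Its highest Ehf IKO library and lowest Control OIL library were close, at 140.4 and 142 CPM. Over the controls' mean Ern2 fell by 0.41 ± 0.09 (edgeR adjusted p = 0.0344), whereas its homologue Ern1 had a log2 fold change of 0.12 ± 0.09 in the same comparison. Txndc11, a thioredoxin-domain gene of the ER, was at 38.2 to 44.3 CPM in Ehf IKO, 49.4 to 57.3 CPM in Control TMX and 51.0 to 69.4 CPM in Control OIL, and fell by 0.42 ± 0.09 (edgeR adjusted p = 0.0276). All 4 falls over the controls' mean kept their sign but lost the call with the plasma cell score as a covariate (edgeR adjusted p of 0.0870 to 0.267) and with the fibroblast score (0.161 to 0.441). With the replicate block those of Ern2 (edgeR adjusted p = 0.0856), Creb3l1 (0.0649) and Txndc11 (0.0761) lost the call as well. The block also ended the calls of Pdia5 against Control TMX (edgeR adjusted p = 0.0915) and Control OIL (0.0534), though not that over the controls' mean. On leaving out 1 library, the call of Pdia5 was lost without Ehf IKO replicate 1 or 2, those of Creb3l1 and Txndc11 without Control TMX replicate 2 or Ehf IKO replicate 1, 2 or 3, and that of Ern2 without any of 8 of the 12 libraries. The summed level of 10 goblet cell markers was 25402 to 36535 CPM in Ehf IKO, 34997 to 42261 CPM in Control TMX and 21674 to 40113 CPM in Control OIL, none of them in these lists. Of the markers Zg16 and Spink4 rose and Spdef and Galnt12 fell against the mean of both controls, and their part in the falls above was not tested.

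No gene of the other lists was called in edgeR's fit on the groups alone. Of 40 other genes of the integrated stress response, 39 were tested, with a median log2 fold change of -0.10 against the mean of both controls. The lowest p in that comparison was that of Nupr1, a stress-induced chromatin protein gene, at 59.1, 73.4, 96.6 and 72.0 CPM in Ehf IKO, 102, 118, 162 and 112.8 CPM in Control TMX and 111, 135.2, 72.2 and 96.7 CPM in Control OIL, and its log2 fold change was -0.59 ± 0.17 (edgeR adjusted p = 0.119). Against the mean of both controls, 4 of 11 cytosolic heat shock genes were higher and 7 lower, and Dnaja1, an Hsp70 partner, had -0.32 ± 0.11 against Control OIL (edgeR adjusted p = 0.200). Of 9 mitochondrial chaperone and protease genes 5 were higher and 4 lower in that comparison, and Hspd1, the mitochondrial Hsp60 gene, had -0.56 ± 0.15 in Control TMX against Control OIL (edgeR adjusted p = 0.178).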

How the data were processed

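RNA from colonic epithelial cells in 12 samples was sequenced, 4 libraries in each of 3 groups. Each deposited file holds whole-number read counts by gene, which the authors made with STAR and featureCounts (Subread 1.6.1) on GRCm38, per the submitters' processing notes. The counting used Ensembl 98 without strand, per the file headers. Here counts were scaled by TMM and tested in one edgeR 4.0.16 quasi-likelihood fit of all libraries (filterByExpr, robust, 9 residual degrees of freedom, R 4.3.3), with p-values adjusted by Benjamini-Hochberg over 15743 genes. Standard errors were taken as the absolute log2 fold change over the root of F. CPM are counts scaled to library size. Alternatives used limma-voom 3.58.1, DESeq2 1.42.0, other filters, covariates and left-out libraries.

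The 36 members and all lists were chosen with earlier results of these data known. Members described with every library, or by the range of each group for Canx and Pdia3, are those called, the 2 with the smallest p in each role (1 in roles of 3) and the 3 with the highest level per length. Single values of other members, such as Phgdh, were picked after they were seen. Pathway genes named are those called, or the 1 with the smallest p. Library totals had a median of 8138352.5 counts and edgeR's common coefficient of biological variation came to 18.3%. Tested on simulated data for Ehf IKO against the mean of both controls (15394 genes), edgeR recovered 31% of genes changed 1.5-fold and 78% of those changed 2-fold. For Ehf IKO against Control TMX these were 22% and 66%, and against Control OIL 20% and 64%. Changes were set only in genes with a mean log2 CPM above 1, so recovery at lower levels was not measured. Gene IDs were found for 35 of the 36 members, all but Ddit3. Replicate numbers were not taken to pair the libraries.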

Additional observations from a re-analysis of the deposited data

Results flagged for a closer look

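In 7 of 108 checks of a group of 4 libraries, 1 library stood apart from the others by Dixon's test, where chance gives about 1 in 20. Eif2ak3 was at 54.9 CPM in Control OIL replicate 1, with the next library of that group at 48.7. Dnajb11 was at 97.5 CPM in the same library, with the next at 80.4. Atf4 was at 82.4 CPM in Control OIL replicate 4, below the next at 90.6. Xbp1 was at 119 CPM in Control TMX replicate 4, with the next at 99.6. In Ehf IKO replicate 4, Dnajb9 was at 10.1 CPM (next 15.6), Ppp1r15a at 13.6 CPM (next 16.5) and Shmt2 at 16.4 CPM (next 11.3).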

How the results depend on the processing

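Counts of called genes depended on the settings. Against the mean of both controls, where 270 genes were called, the count was 831 with no filter, 471 with DESeq2, 148 with the replicate block, 114 with the plasma cell score, 39 with the fibroblast score, 173 higher and 175 lower with the cycling score, and 108 to 522 with 1 library left out. For the members (1 called) it was 2 with no filter, DESeq2 or the cycling score, 0 with the plasma cell or fibroblast score, and 0 to 2 with 1 library left out. Against Control TMX (126 genes) it was 500 with no filter, 305 with DESeq2, 72 with the replicate block, 60 with the plasma cell or fibroblast score, 80 with the cycling score and 50 to 162 with 1 library left out, and for the members (1) it was 0 with any of these 3 scores and 0 to 1 with 1 library left out. Against Control OIL (265 genes) it was 724 with no filter, 534 with DESeq2, 1.1e+02 with only the groups compared, 173 with the replicate block, 167 with the plasma cell score, 14 with the fibroblast score and 104 to 711 with 1 library left out. For the members (1) it was 7 with no filter, 3 with DESeq2 or the cycling score, 4 with the replicate block (Asns, Hspa5, Hyou1 and Manf), 5 with the sex marker covariate, 0 with the fibroblast score and 0 to 3 with 1 library left out. Between the controls (13 genes) it was 441 with no filter, 5 with a mean log2 CPM of at least 1 or the cycling score, 196 with DESeq2, 8 with limma-voom, 35 with the sex marker covariate, 65 with the plasma cell score, 0 with the fibroblast score and 3 to 67 with 1 library left out, and with the replicate block it was 18. For the members (0) it was 8 with no filter, 4 with DESeq2, 2 with the replicate block or the sex marker covariate (Hspa5 and Manf) and 0 to 3 with 1 library left out. The cause of these shifts was not tested. Same-numbered libraries correlated at -0.41 to 0.40, so the numbers were not taken as pairs, although in each group replicates 1 and 2 carried Xist and replicates 3 and 4 the Y-linked counts, a split the block also absorbs. The r of Hspa5 with Hsp90b1 was 0.81 to 0.91 and with Hyou1 0.82 to 0.94 with 1 library left out, that of Hspa5 with Pdia6 passed without Control OIL replicate 1 (0.70) or 4 (0.81) and was as low as 0.30 without another library, that of Asns with Psat1 without Control OIL replicate 1 (0.78) or 4 (0.86) and was as low as 0.55 otherwise, and that of Derl3 with Jchain was -0.23 without Ehf IKO replicate 4 and up to 0.55 without another library. The fit of only the groups compared gives no value for the mean of both controls. The cycling score was chosen after seeing the data.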
